A study of Mus musculus with 18 samples.

Results

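Fatty acid desaturases and elongases were followed in RNA of BMC cells, an immortalised line of mouse brown preadipocytes differentiated into brown adipocytes. The 8 genes are Scd1, Scd2, Fads1, Fads2, Fads3, Elovl3, Elovl5 and Elovl6, chosen by gene name from the 45706 genes of the deposited table. Of these 8, 7 passed the filter on low counts that left 14788 genes for testing, and Elovl3 did not. The labels give 3 groups of 6 libraries each, cells sampled 24 h and 4 h after 1 µM norepinephrine and cells not induced (0 h). All groups share the same cell line, differentiation cocktail and day of experiment, day 7, and carry replicate numbers 1 to 6. No label ties the libraries of 1 group to separate cultures. The p-values below therefore cover the spread among these libraries alone, and that spread may be technical. The design text gives as its question how RNA changes after norepinephrine starts lipolysis, in which stored fat is broken down to fatty acids.

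Fatty acid synthase makes saturated chains, which elongases of the Elovl family lengthen and desaturases then bend by inserting a double bond. Stearoyl-CoA desaturases (Scd) make monounsaturated chains such as oleate, the bulk of stored fat. The Fads enzymes and Elovl5 turn the essential dietary fatty acids into longer polyunsaturated chains for membranes and signalling lipids. In mouse brown fat Elovl3 is known as an elongase induced by cold, and Scd1 as one of the most abundant lipogenic transcripts. Many of these genes are known targets of SREBP-1c, the lipogenic transcription factor encoded by Srebf1, and of liver X receptors.

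Of the 8 genes 6 lie on chromosome 19 in the GENCODE M21 annotation of mm10, in 2 groups of neighbours and Elovl3. Scd2 (chromosome 19, 44293674 to 44306864, plus strand) ends 87.6 kb before Scd1 (44394455 to 44407879, minus strand). Fads3 (chromosome 19, 10041569 to 10060110, plus strand), Fads2 (10062765 to 10101746, minus strand) and Fads1 (10182888 to 10196877, plus strand) follow each other, with 2.65 kb and 81.1 kb between them. Elovl3 is at 46131897 to 46135694 of the same chromosome. Elovl5 is on chromosome 9 (77917364 to 77984519) and Elovl6 on chromosome 3 (129532355 to 129638495).

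Scd1 and Scd2 are close copies, and their coding sequences in GENCODE M21 were 89.6% identical along an alignment of 1074 columns. Of the 1014 windows of 52 bases, the length of a read, in the coding sequence of Scd1, 137 (13.5%) occurred unchanged in Scd2. The longest stretch they share has 147 bases. It is shown within a stretch of 177 bases, at positions 508 to 684 of the Scd1 coding sequence and 517 to 693 of Scd2. A read from inside the shared stretch cannot by itself be assigned to either gene. The reads were sequenced in pairs, and the share of windows takes no account of a read's mate. Capitals mark the bases that differ.
Scd1: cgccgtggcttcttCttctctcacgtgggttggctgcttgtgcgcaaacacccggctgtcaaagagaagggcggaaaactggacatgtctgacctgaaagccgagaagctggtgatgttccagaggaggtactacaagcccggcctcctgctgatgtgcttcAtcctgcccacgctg
Scd2: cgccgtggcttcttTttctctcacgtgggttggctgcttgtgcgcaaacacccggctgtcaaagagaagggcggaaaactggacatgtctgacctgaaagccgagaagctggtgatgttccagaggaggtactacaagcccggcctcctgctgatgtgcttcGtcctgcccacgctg

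The authors' expected counts, which salmon shares out between genes with common reads, were not whole in 18 of 18 libraries for Scd1 and in 17 for Scd2 (more than 0.005 from a whole number). Levels of these genes and of Scd3, whose coding sequence is 90.4% identical to Scd1, are uncertain to that extent. Fads2 and Fads3 were 69.7% identical and shared 0.234% of windows, and no window was shared between Fads1 and Fads2 or between Elovl5 and Elovl6. Counts of Elovl6 were nevertheless not whole in 11 libraries, and those of Fads2 and Fads3 in 2 each. Which sequences share reads with Elovl6 was not tested.

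RefSeq promoter windows, 250 bases before a gene's start, were matched for 4 of the 8 genes, Fads2, Fads3, Elovl5 and Elovl6. RefSeq's start of Fads2 lies inside the gene as GENCODE M21 places it, and 243 of the 250 bases of that window are GENCODE exon, as are 129 of the 250 for Elovl6, 1 for Elovl5 and 0 for Fads3. Both strands were searched for CCAAT, the box bound by NF-Y, a factor known to act with SREBP at lipogenic promoters. The other motifs searched were CACGTG (an E-box), TGACGTCA (a cAMP response element), TCACNCCAC (a sterol regulatory element) and GGGCGG (a GC box). Fads3 and Elovl5 each held 2 CCAAT boxes, a motif found in 33.8% of the 32851 windows of this length. The stretches that carry them are printed with CCAAT and GGGCGG, on either strand, in capitals. None of these motif letters overlap each other in the stretches shown. They lie at chr19:10041418-10041547 and chr9:77917234-77917363, plus strand, of RefSeq's GRCm38.p6.
Fads3: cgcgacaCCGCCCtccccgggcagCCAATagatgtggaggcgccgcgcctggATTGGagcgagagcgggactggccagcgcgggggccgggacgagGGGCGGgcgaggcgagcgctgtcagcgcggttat
Elovl5: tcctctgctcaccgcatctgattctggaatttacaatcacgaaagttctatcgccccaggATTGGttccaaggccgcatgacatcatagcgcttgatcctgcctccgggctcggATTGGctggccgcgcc

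Elovl5 also held 1 E-box, 161 bases before its start and outside the stretch shown, a motif found in 6.02% of windows. Fads3 held 2 GC boxes and the window of Fads2, nearly all of it exon, held 1, against 32.7% of windows with at least 1. No searched motif was found in the window of Elovl6. The letters of the cAMP response element (1.55% of windows) and of the sterol regulatory element (1.05%) were in none of the 4 windows.

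The 18 libraries held 7010742 to 26501223 expected counts, of which the 8 genes took 0.564 to 2.07%. Yam1 and Gm26917, read here as signs of ribosomal RNA, took 41.49% of the counts of 24 h replicate 5, the shallowest library. The libraries went against their labels in that they resembled those with the same replicate number, or a number 3 apart, at the other times, more than those with the same labelled time. Values are therefore given by labelled time and by 3 sets of numbers (3 and 6, 2 and 5, 1 and 4), each of 6 libraries, 2 at every labelled time. The sets were put together with these correlations known, so p-values between them describe how far the sets lie apart and do not establish them. No label says what the numbers stand for. Whether times and numbers were exchanged in the labels cannot be told from the sources used here, so each value by time or by number holds only as far as the labels do. All 12 brown adipocyte markers sought passed the filter on low counts. In numbers 3 and 6 against numbers 1 and 4, 5 of them were lower, 4 higher and 3 not called (edgeR adjusted p under 0.05). Shares over all genes tested were 29.5% lower and 30.2% higher. Fabp4 and Ucp1, named here, both had lower means in numbers 3 and 6 than in numbers 1 and 4. They were picked after their values were seen, and none of the higher markers is named. They therefore do not stand for the 12 markers. CPM is the count relative to the library's TMM-scaled total. Fabp4, the lipid carrier of adipocytes, had 2184 ± 214 CPM in numbers 3 and 6 and 1951 ± 108 in numbers 2 and 5. In numbers 1 and 4 it had 2769 ± 82.4 CPM (SD, n = 6). Ucp1, the uncoupling protein of heat production, had 1.81 ± 0.534, 10.5 ± 0.590 and 15.8 ± 1.97 CPM in the same order of sets.

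Per kilobase of exon, Scd1 was the most abundant of the 8 transcripts in every set. Its mean level was 1138 CPM per kb in numbers 3 and 6, 2538 in numbers 2 and 5 and 2772 in numbers 1 and 4. Scd2 came next with 169.8, 273 and 1054 CPM per kb, and Fads1 after it with 44.8, 38.7 and 77.1. The order of the genes below them differed between sets. In numbers 3 and 6 Elovl5 stood at 29.9 CPM per kb, above Fads3 at 19.3 and Fads2 at 15.1, and in numbers 2 and 5 at 34.4, above 25.8 and 20.02. In numbers 1 and 4 Fads3 at 48.5 and Fads2 at 47.8 CPM per kb differed by less than their spread between libraries, and Elovl5 followed at 41.7. Elovl6 had 5.12, 3.93 and 6.25 CPM per kb, and Elovl3 was the lowest in each set.

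**Figure D1:**
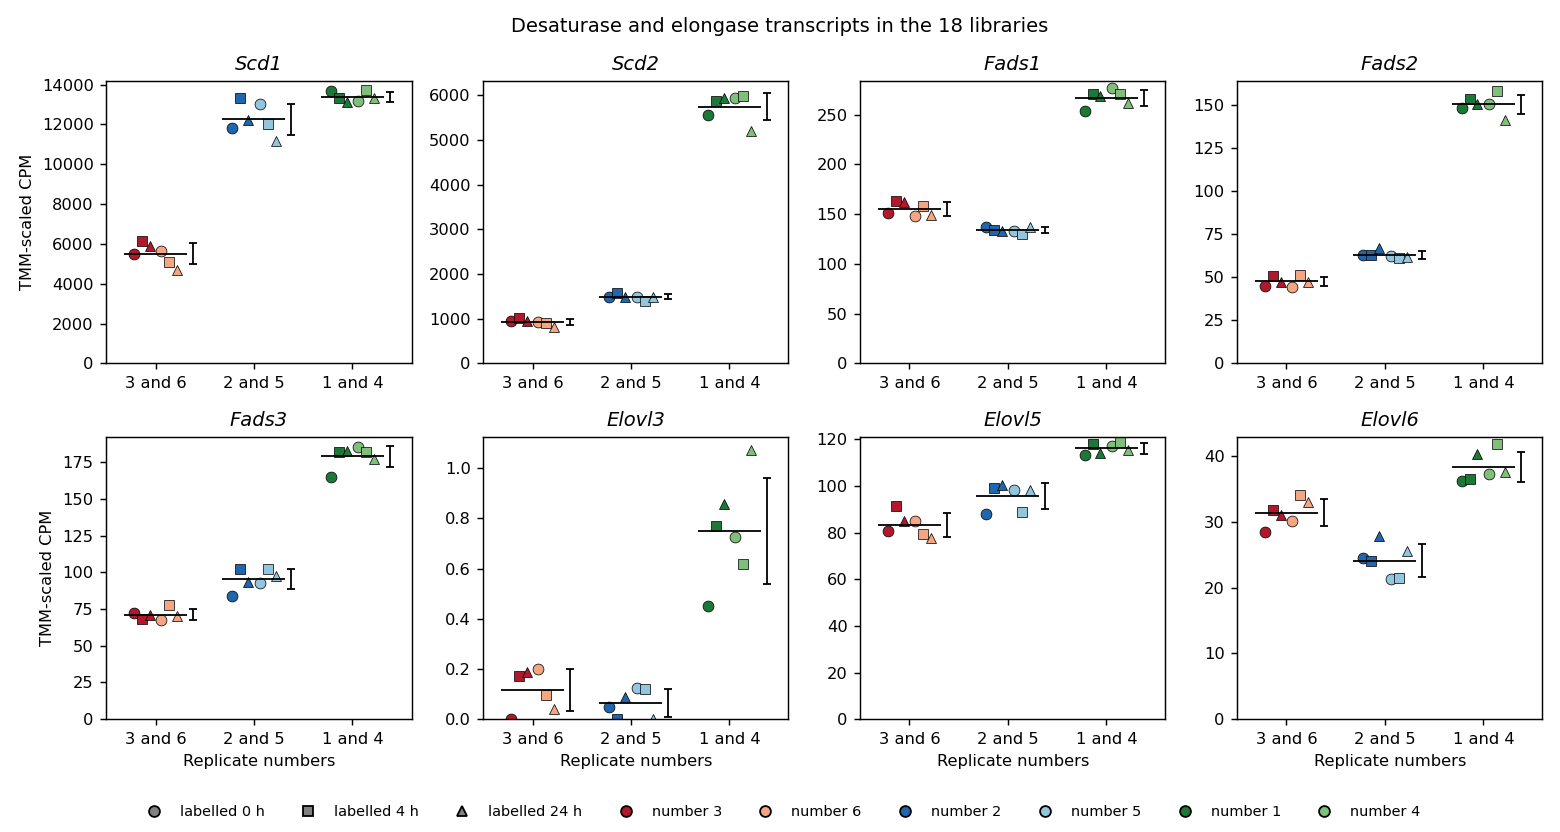
Level of each gene in every library, in TMM-scaled CPM on axes from 0, by set of replicate numbers; marker shape gives the labelled time, colour the number, and bars the mean and SD of 6 libraries. Scd2 sat between 816 and 1026 CPM in numbers 3 and 6, 1404 and 1586 in numbers 2 and 5 and 5201 and 5979 in numbers 1 and 4, with the 3 labelled times mixed within each set.

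Between labelled times none of the 7 tested genes passed, nor did any gene of the table. In mean CPM Scd1 stood at 10477 ± 3839 in 0 h libraries, 10604 ± 3918 in 4 h libraries and 10076 ± 3797 in 24 h libraries (SD, n = 6). The lowest, median and highest libraries were 5509, 12419 and 13683 CPM at 0 h, 5086, 12670 and 13732 at 4 h and 4714, 11702 and 13347 at 24 h. The 3 times overlapped over nearly their whole range. Scd2 averaged 2728 ± 2363, 2792 ± 2438 and 2644 ± 2293 CPM at 0, 4 and 24 h, an SD nearly as large as the mean.

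At 4 h against 0 h the log2 fold changes of the 7 genes ran from 0.02 (SE 0.33) for Scd1 to 0.10 (SE 0.33) for Fads3, each with an edgeR adjusted p of 1.00. No gene was called in that comparison (0% of 14788, and 173 at an unadjusted p under 0.05), nor with DESeq2 (190 unadjusted) or limma-voom (224). This fit has time alone in the model and leaves the difference between numbers in the spread. Its 95% intervals were wide, from -1.36 to 1.42 for Scd2 and from -0.23 to 0.30 for Elovl5. Changes of those sizes could not be told from 0 in this fit. At 24 h against 0 h (0% called, 158 unadjusted; 160 and 154 by the other tools, with 0 called) the fold changes ran from -0.06 (SE 0.33) for Scd1 to 0.15 (SE 0.17) for Elovl6. At 24 h against 4 h (0% called, 137 unadjusted; 121 and 133 by the other tools, with 0 called) they ran from -0.08 (SE 0.66) for Scd2 to 0.05 (SE 0.17) for Elovl6. Directions this close to 0 turned with the scaling or with the libraries left out, as set out with the processing alternatives.

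With the replicate number as a block, which removes the difference between numbers, the intervals became narrow. For Scd2 at 4 h against 0 h the blocked 95% interval was -0.07 to 0.12 around 0.02, and for Scd1 at 24 h against 0 h it was -0.17 to 0.04 around -0.07. Elovl6, the elongase that extends palmitate to stearate, had the lowest blocked p of the 7 genes. It differed by 0.13 ± 0.05 (log2, SE) at 24 h against 0 h, with an edgeR adjusted p of 0.393. Its blocked 95% interval there, 0.04 to 0.23, left out 0, as did that of Elovl6 at 4 h against 0 h, 0.00045 to 0.19. The 24 h library exceeded the 0 h library in 6 of 6 numbers, by 0.15 ± 0.08 on the log2 scale (SD, n = 6). Fads3 at 4 h against 0 h had a blocked log2 fold change of 0.10 (95% interval 0.02 to 0.18, edgeR adjusted p = 0.391), with 4 of 6 numbers higher. The blocked intervals take no account of the number of genes tested. At an unadjusted p under 0.05 the blocked edgeR fit had 1461 genes at 4 h against 0 h, 1155 at 24 h against 0 h and 757 at 24 h against 4 h. The fit without the block had 173, 158 and 137 in the same order. After adjustment the block called none of the 7 tested genes, and 1 of 14788 genes (0.00676%) at 24 h against 0 h. Elovl3 was not tested. A test of whether the differences between times depended on the number set also called no gene (edgeR interaction, 415 of 14788 unadjusted), with adjusted p of 1.00 for each of the 7.

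Most of the variance of the family's genes lay between the number sets, with differences from 1.09-fold (Scd1 in numbers 2 and 5 against 1 and 4) to 6.21-fold (Scd2 in numbers 3 and 6 against 1 and 4) among the tested genes. The set accounted for 87.8 to 99.5% of the variance in log2 CPM of the 7 tested genes and for 83% for Elovl3, against a median of 62.7% over all genes tested. The labelled time accounted for 0.0778 to 4.16% over the 8 genes, against a median of 3.78%.

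In numbers 3 and 6 against numbers 1 and 4, all 7 tested genes were lower, and no library of one set overlapped the other set for any of them. Of all genes tested, 59.7% were called in that comparison, 29.5% lower and 30.2% higher, and 38.6% had sets without overlap. The median log2 fold change of the 7 was -1.28, against 0.00 over all genes tested. In numbers 2 and 5 against numbers 1 and 4, 6 of the 7 were lower and none higher, with a median of -0.91, where 59.5% of all genes were called, 29.9% lower and 29.6% higher. There 6 of the 7 had sets without overlap, against 35.3% of all genes. In numbers 3 and 6 against numbers 2 and 5, 5 were lower and 2 higher, with a median of -0.42, where 57.1% were called, 28.5% lower and 28.6% higher. Again 6 of the 7 had sets without overlap, against 29.8% of all genes. With library totals alone, without TMM, the median of all genes moved by 0.17, -0.09 and 0.25 (log2) in these 3 comparisons. The genes called were then 3404 higher and 1132 lower, 1348 higher and 2440 lower, and 4406 higher and 724 lower, and the family members' directions stayed except that of Elovl5 in the last. Under that scaling the calls of Elovl5 (edgeR adjusted p = 0.144) and Elovl6 (0.606) were lost in numbers 3 and 6 over 1 and 4, that of Elovl5 (0.0736) in numbers 2 and 5 over 1 and 4, and those of Scd2 (0.060), Fads2 (0.525), Fads3 (0.534) and Elovl5 (0.768) in numbers 3 and 6 over 2 and 5. These comparisons share libraries, so their counts are not independent of each other.

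Scd2, the desaturase isoform known from brain, preadipocytes and young animals, had the largest differences of the 7 tested genes from numbers 1 and 4. Its lowest, median and highest levels were 816, 936 and 1026 CPM in numbers 3 and 6, 1404, 1485 and 1586 in numbers 2 and 5 and 5201, 5901 and 5979 in numbers 1 and 4. The 3 sets did not overlap, and each labelled time showed the same order. The log2 fold change of numbers 3 and 6 over 1 and 4 was -2.63 (SE 0.05, edgeR adjusted p = 2.97e-24), a level 6.21-fold lower. That of numbers 2 and 5 over 1 and 4 was -1.95 (SE 0.05, edgeR adjusted p = 2.12e-21), 3.86-fold lower. Of the absolute fold changes in those comparisons, 99.5% and 99.2% over all genes tested were smaller than that of Scd2.

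Scd1, the main adipocyte isoform, had a different pattern from its neighbour. Its lowest, median and highest levels were 4714, 5586 and 6152 CPM in numbers 3 and 6, 11195, 12118 and 13316 in numbers 2 and 5 and 13115, 13330 and 13732 in numbers 1 and 4. The set of numbers 3 and 6 stood apart from both others, which overlapped each other. Over numbers 1 and 4 the log2 fold change of numbers 3 and 6 was -1.28 (SE 0.06, edgeR adjusted p = 1.36e-16), and over numbers 2 and 5 it was -1.16 (SE 0.06, adjusted p = 2.08e-15). Numbers 2 and 5 over 1 and 4 gave -0.13 (95% interval -0.25 to -0.01, edgeR adjusted p = 0.060), which did not pass. With the replicate number as a block that adjusted p was 0.0316, and DESeq2 gave 0.0191.

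The ratio of Scd1 to Scd2 counts within a library, which does not depend on scaling between libraries, separated the 3 sets without overlap. It was 5.93 ± 0.210 in numbers 3 and 6 (5.69 to 6.23), 8.24 ± 0.438 in numbers 2 and 5 (7.51 to 8.72) and 2.34 ± 0.145 in numbers 1 and 4 (2.21 to 2.57; SD, n = 6). By labelled time the ratio averaged 5.55 ± 2.72 in 0 h libraries, 5.54 ± 2.78 in 4 h libraries and 5.43 ± 2.52 in 24 h libraries.

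**Figure D2:**
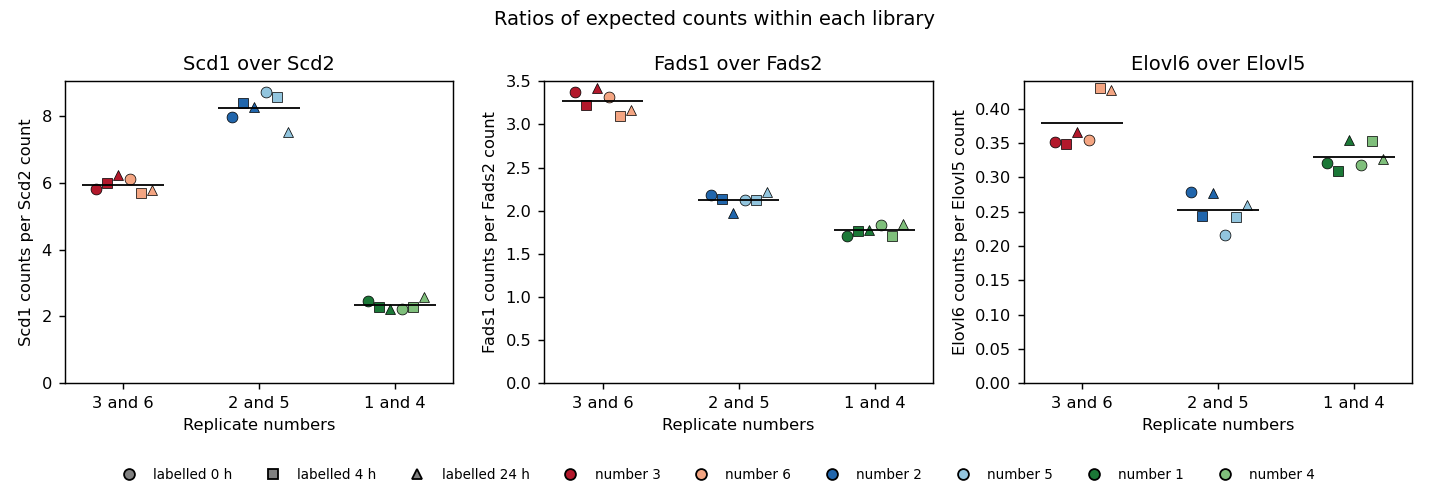
Ratio of expected counts of paired family members within each library, by set of replicate numbers, with a line at the mean of 6 libraries; marker shape gives the labelled time and colour the number. Scd1 per Scd2 count averaged 5.93 in numbers 3 and 6, 8.24 in numbers 2 and 5 and 2.34 in numbers 1 and 4.

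The Fads genes, which front the pathway to polyunsaturated chains, also had their highest levels in numbers 1 and 4. Fads2, the delta-6 desaturase at its entry, had lowest, median and highest levels of 44.4, 47.2 and 51.1 CPM in numbers 3 and 6, 61.02, 62.7 and 67.2 in numbers 2 and 5 and 141, 151 and 158 in numbers 1 and 4. No set overlapped another. The log2 fold change over numbers 1 and 4 was -1.67 (SE 0.04, edgeR adjusted p = 9.83e-24) in numbers 3 and 6 and -1.25 (SE 0.04, adjusted p = 1.26e-20) in numbers 2 and 5. Between numbers 3 and 6 and numbers 2 and 5 it was -0.42 (SE 0.04).

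Fads1, the delta-5 desaturase further along, differed from Fads2 in the order of the lower sets. It had 147.6, 154.8 and 163.6 CPM as lowest, median and highest levels in numbers 3 and 6, 129.9, 133.6 and 137.4 in numbers 2 and 5 and 254, 269 and 276 in numbers 1 and 4. Numbers 3 and 6 were higher than numbers 2 and 5 by 0.21 on the log2 scale (SE 0.04, adjusted p = 9.09e-06 by edgeR), with no overlap, while Fads2 was lower. Against numbers 1 and 4 the values were -0.78 (SE 0.03) for numbers 3 and 6 and -0.995 (SE 0.04) for numbers 2 and 5. Fads1 counts per Fads2 count averaged 3.27 ± 0.124 in numbers 3 and 6, 2.13 ± 0.0819 in numbers 2 and 5 and 1.77 ± 0.0583 in numbers 1 and 4 (SD, n = 6), again without overlap.

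Fads3, a family member whose known activities include a desaturation of sphingoid bases, followed Fads2. It had 67.8, 70.5 and 77.6 CPM as lowest, median and highest levels in numbers 3 and 6, 83.9, 95.4 and 102 in numbers 2 and 5 and 165, 182 and 185 in numbers 1 and 4. The sets did not overlap. The log2 fold change over numbers 1 and 4 was -1.33 (SE 0.04, edgeR adjusted p = 1.04e-20) in numbers 3 and 6 and -0.91 (SE 0.04) in numbers 2 and 5. Between numbers 3 and 6 and numbers 2 and 5 it was -0.42 (SE 0.04), the same size as for Fads2, whose 3′ end lies 2.65 kb from that of Fads3.

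Elovl5, the elongase that extends polyunsaturated chains, had 77.5, 82.8 and 91.5 CPM as lowest, median and highest levels in numbers 3 and 6, 88.03, 98.3 and 100.6 in numbers 2 and 5 and 113, 116 and 119 in numbers 1 and 4. Numbers 1 and 4 stood above both other sets, which overlapped each other. The log2 fold change over numbers 1 and 4 was -0.48 (SE 0.04, edgeR adjusted p = 5.98e-11) in numbers 3 and 6 and -0.28 (SE 0.04, adjusted p = 1.23e-06) in numbers 2 and 5. Between numbers 3 and 6 and numbers 2 and 5 it was -0.19 (SE 0.04) with TMM scaling and 0.07, the opposite sign and not called, with library totals alone.

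Elovl6 was lowest in numbers 2 and 5. It had 28.4, 31.5 and 34.1 CPM as lowest, median and highest levels in numbers 3 and 6, 21.3, 24.3 and 27.9 in numbers 2 and 5 and 36.3, 37.4 and 41.9 in numbers 1 and 4. The sets did not overlap, though the highest library of numbers 2 and 5 lay close to the lowest of numbers 3 and 6. Numbers 3 and 6 over numbers 2 and 5 gave 0.37 on the log2 scale (SE 0.05, adjusted p = 1.26e-06 by edgeR). Against numbers 1 and 4 the values were -0.30 (SE 0.05, adjusted p = 8.39e-06) for numbers 3 and 6 and -0.67 (SE 0.05, adjusted p = 1.91e-11) for numbers 2 and 5. Elovl6 rests on 77 expected counts in 24 h replicate 5, the fewest of any library, and on 968 in 0 h replicate 1, the most.

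Elovl3 was close to the limit of detection. Its expected counts summed to 16 over the 6 libraries of numbers 3 and 6 (exact Poisson 95% interval 9.15 to 26.0, 0 to 5 per library), to 8 in numbers 2 and 5 (3.45 to 15.8, 0 to 3 per library) and to 86 in numbers 1 and 4 (68.8 to 106, 11 to 19 per library). The intervals cover counting error only. Every library of numbers 1 and 4 thus had more counts than any other library. Where no filter on low counts was set, an edgeR fit of 26331 genes gave a log2 fold change of -2.55 (SE 0.41, adjusted p = 2.95e-09) for numbers 3 and 6 over 1 and 4 and -3.03 (SE 0.48, adjusted p = 1.69e-09) for numbers 2 and 5 over 1 and 4. Between numbers 3 and 6 and numbers 2 and 5 it gave 0.48 (SE 0.62, adjusted p = 0.637).

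**Figure D3:**
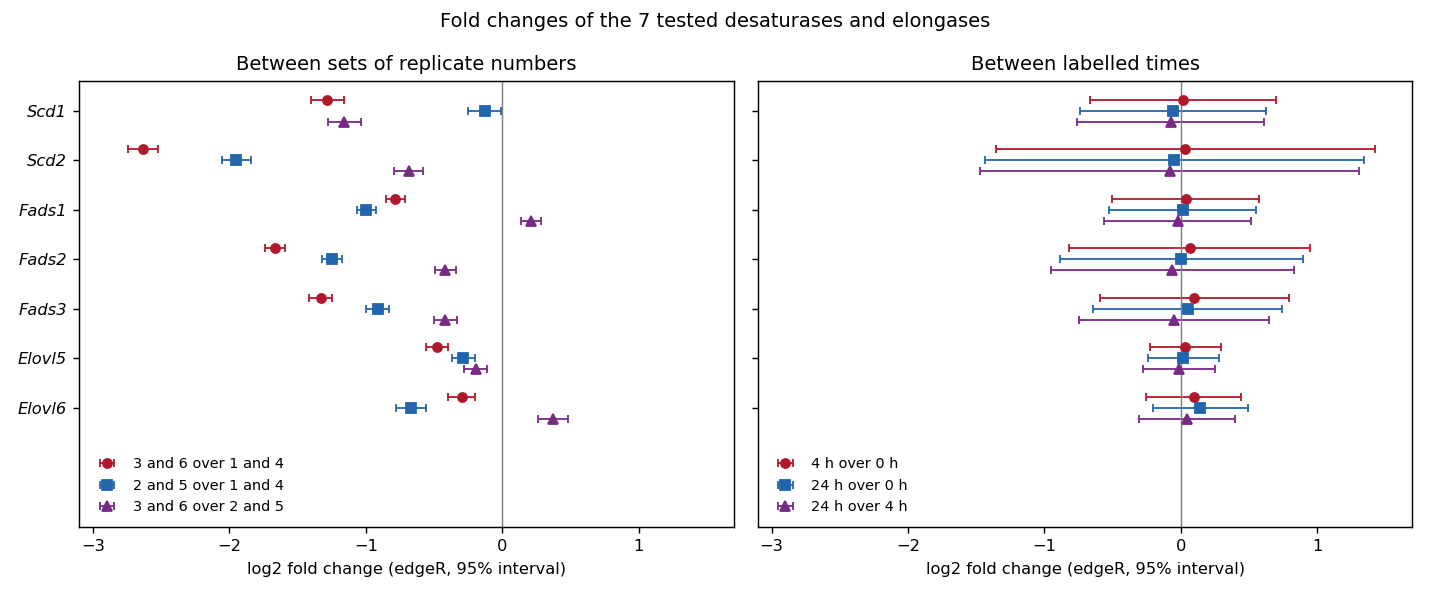
Log2 fold changes of the 7 tested genes with 95% intervals derived from edgeR's F-test, between sets of replicate numbers on the left and between labelled times on the right. Scd2 reached -2.63 for numbers 3 and 6 over 1 and 4. Intervals of all 7 genes between labelled times spanned 0 in the fit shown, which has no replicate block. The sign of Elovl5 for numbers 3 and 6 over 2 and 5 (-0.19) turned with library totals alone (0.07).

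The differences of numbers 3 and 6 from numbers 1 and 4 were of similar size at each labelled time. For Scd2 the log2 fold change was -2.61 in the 0 h libraries alone, -2.63 in the 4 h libraries alone and -2.66 in the 24 h libraries alone, and for Fads2 it was -1.74, -1.62 and -1.63. All 7 genes passed at each time, where 46.5% (0 h), 33.5% (4 h) and 30.3% (24 h) of all genes did. In numbers 1 to 3 alone the value for Scd2 was -2.58, and in numbers 4 to 6 alone -2.71, with all 7 genes passing in both, where 50.0% and 45.6% of all genes did. In numbers 3 and 6 over numbers 2 and 5 the calls of Elovl5 (4 h libraries alone), Fads1 and Elovl6 (24 h libraries alone) were lost, with unchanged signs, as was that of Elovl5 in numbers 2 and 5 over 1 and 4 (24 h libraries alone).

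Markers of other cell states differed between the same sets. In numbers 3 and 6 against numbers 1 and 4 the shares over all genes tested were 29.5% lower and 30.2% higher. Of 10 preadipocyte and fibroblast markers 8 were tested, and all 8 were higher in numbers 3 and 6 than in numbers 1 and 4, with a median log2 fold change of 1.06. Their summed level was 1696 to 2148 CPM in numbers 3 and 6, 1086 to 1624 in numbers 2 and 5 and 858 to 999 in numbers 1 and 4. Of 16 cAMP and immediate early genes, which adrenergic signalling is known to induce, 13 were lower and 1 higher in numbers 3 and 6 than in numbers 1 and 4. That list summed to 343 to 396 CPM in numbers 3 and 6, 471 to 542 in numbers 2 and 5 and 2119 to 2969 in numbers 1 and 4. Of 12 brown adipocyte markers 5 were lower and 4 higher, with a median of -0.02. The part of these differences in the levels of the desaturases and elongases was not tested, and fewer cells of a type and less RNA per cell cannot be told apart in such bulk samples. Of 5 smooth muscle markers 4 were tested, 2 higher (Acta2 and Tagln) and 1 lower (Des) in numbers 3 and 6 than in numbers 1 and 4, and the list summed to 63.2 to 85.9 CPM in numbers 3 and 6, 32.5 to 56.7 in numbers 2 and 5 and 29.3 to 32.3 in numbers 1 and 4. Of 5 skeletal muscle markers 1 was tested, Acta1, an actin gene, which was lower in numbers 3 and 6 than in numbers 1 and 4 by a log2 of -2.24, and the list summed to 0.584 to 1.42, 2.31 to 3.11 and 3.66 to 4.46 CPM in the same order, with Myod1 at 0 in all 18 libraries. Of 5 macrophage markers 1 was tested, Cd68, which did not pass, and the list summed to 2.78 to 3.70, 2.98 to 4.23 and 2.92 to 3.31 CPM, with Adgre1 at 0. None of 5 endothelial markers passed the filter, and the list summed to 0.671 to 1.52, 0.332 to 1.24 and 0.570 to 1.01 CPM, with Cdh5 at 0.

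The other desaturases and elongases included Scd3 and Scd4, further stearoyl-CoA desaturase genes beside Scd2. Of the list's 9 genes 6 were tested, and in numbers 3 and 6 over 1 and 4, 5 were lower and 1 higher, with a median log2 fold change of -0.57. The shares over all genes tested were 29.5% lower and 30.2% higher. Scd3 had 8.71 ± 1.07 CPM in numbers 3 and 6, 59.4 ± 7.64 in numbers 2 and 5 and 67.9 ± 4.88 in numbers 1 and 4 (SD, n = 6). Its log2 fold change over numbers 1 and 4 was -2.94 (SE 0.07, edgeR adjusted p = 1.59e-20) in numbers 3 and 6 and -0.18 (SE 0.06, adjusted p = 0.0106) in numbers 2 and 5. Like Scd1 it stood lowest in numbers 3 and 6, with the other sets near each other. Scd4 had 0.681 ± 0.190, 1.08 ± 0.231 and 3.26 ± 0.504 CPM in the same order. Elovl1, which lengthens very long saturated chains, was lower in numbers 3 and 6 than in numbers 1 and 4 by -0.22, as was Degs1, the dihydroceramide desaturase, by -0.23. Elovl2 was at 0 in all libraries.

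The enzymes that complete each elongation cycle or pass electrons to desaturases differed in both directions. Of 11 tested, 5 were lower and 4 higher in numbers 3 and 6 than in numbers 1 and 4, with a median of -0.02. The shares over all genes tested were 29.5% lower and 30.2% higher. Cyb5r1, a cytochrome b5 reductase, had 53.8 ± 4.48 CPM in numbers 3 and 6, 77.6 ± 5.88 in numbers 2 and 5 and 148 ± 3.88 in numbers 1 and 4 (log2 fold change of numbers 3 and 6 over 1 and 4, -1.46, edgeR adjusted p = 1.55e-20). Cyb5b, the outer mitochondrial cytochrome b5, was lower by -0.54 (SE 0.03). Cyb5r3, the main reductase of microsomal cytochrome b5, had 148 ± 10.8, 155 ± 15.3 and 145 ± 2.78 CPM and did not pass in any set comparison.

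Of 20 regulators of these genes, 10 were lower and 4 higher in numbers 3 and 6 than in numbers 1 and 4, with a median of -0.12. The shares over all genes tested were 29.5% lower and 30.2% higher, with 59.7% called in either direction. Srebf1 had 413 ± 33.9 CPM in numbers 3 and 6, 446 ± 26.1 in numbers 2 and 5 and 875 ± 28.1 in numbers 1 and 4 (SD, n = 6). The log2 fold change over numbers 1 and 4 was -1.09 (SE 0.05) in numbers 3 and 6 and -0.97 (SE 0.05) in numbers 2 and 5, with edgeR adjusted p of 5.92e-17 and 6.85e-16. Insig1, which holds SREBP in the endoplasmic reticulum and is itself a target of SREBP, had 289.6 ± 18.5, 238 ± 9.78 and 573 ± 28.9 CPM. Mid1ip1, an activator of acetyl-CoA carboxylase, had 16.6 ± 1.74, 15.7 ± 0.614 and 44.3 ± 2.73 CPM. In numbers 2 and 5 over 1 and 4 the list had 9 lower and 10 higher, where 29.9% of all genes were lower and 29.6% higher.

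Genes that supply fatty acids to the family were mostly lower as well. In numbers 3 and 6 over 1 and 4, 10 of 11 were lower and 1 higher, with a median log2 fold change of -0.65. All genes tested had 29.5% lower and 30.2% higher there. In numbers 2 and 5 over 1 and 4, 9 were lower and 2 higher, with a median of -0.79. There 29.9% of all genes were lower and 29.6% higher. Fasn, fatty acid synthase, had 568 ± 38.2 CPM in numbers 3 and 6, 423 ± 57.5 in numbers 2 and 5 and 1217 ± 68.4 in numbers 1 and 4. As with Fads1 and Elovl6, its lowest set was numbers 2 and 5 (numbers 3 and 6 over 2 and 5, log2 0.43, SE 0.07, edgeR adjusted p = 1.03e-05). Acsl1, which activates fatty acids in adipocytes, had 352 ± 30.4, 275 ± 12.6 and 489.6 ± 15.3 CPM in the same order, also lowest in numbers 2 and 5. Acss2, which makes acetyl-CoA from acetate, and Acsl3, an acyl-CoA synthetase of lipid droplets, were lower in numbers 3 and 6 than in numbers 1 and 4 by -1.21 (SE 0.05) and -1.28 (SE 0.04).

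Of 12 genes that use unsaturated acyl chains, 7 were lower and 5 higher in numbers 3 and 6 than in numbers 1 and 4, with a median of -0.38. The shares over all genes tested were 29.5% lower and 30.2% higher. Dgat2, which makes triglyceride, had 94.7 ± 10.9 CPM in numbers 3 and 6, 69.2 ± 5.05 in numbers 2 and 5 and 249 ± 9.76 in numbers 1 and 4. Dgat1, its partner enzyme, had 144 ± 11.3, 178 ± 11.1 and 203 ± 4.35 CPM, with a log2 fold change of -0.50 (SE 0.05) for numbers 3 and 6 over 1 and 4. Soat2, a cholesterol esterifying enzyme, had 0.769 ± 0.0897, 2.18 ± 0.751 and 5.24 ± 0.427 CPM. Between labelled times no gene of these lists passed.

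**Figure D4:**
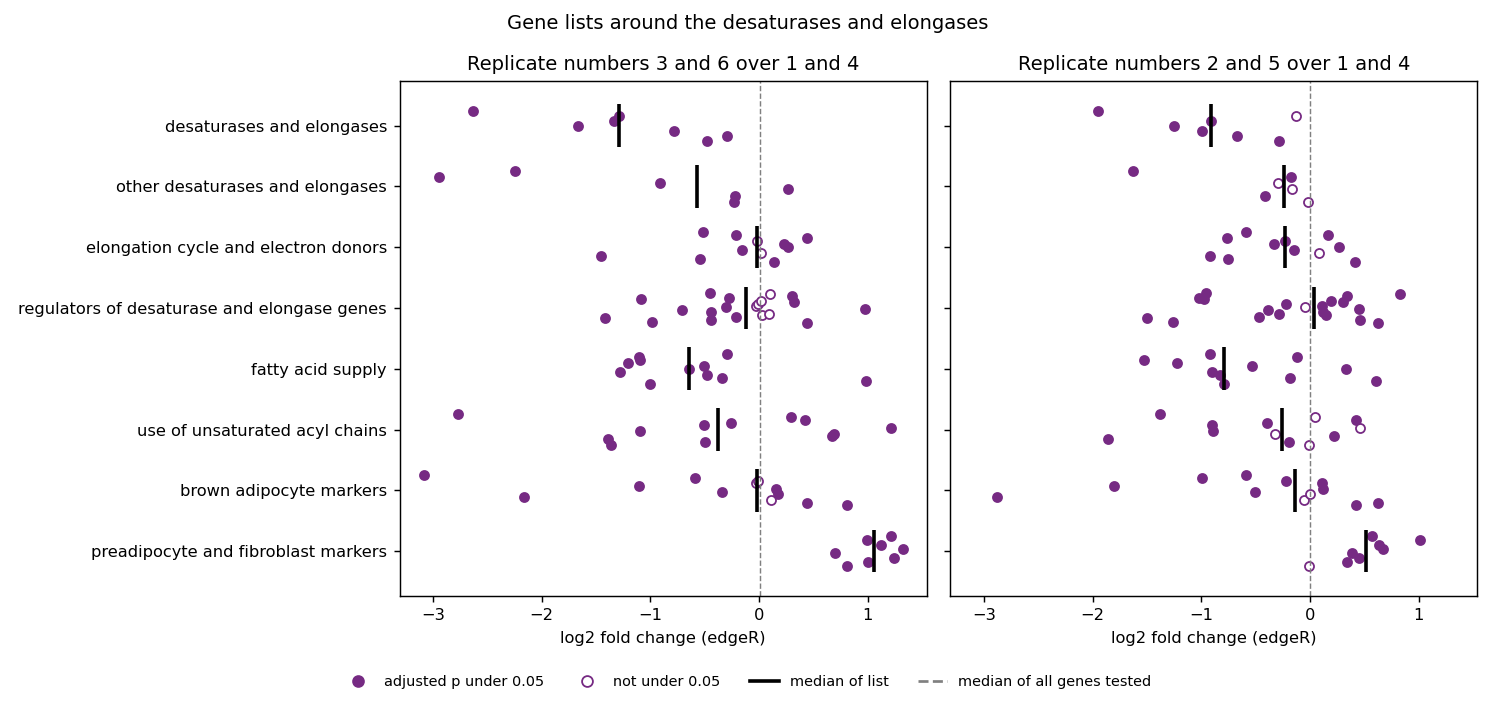
Log2 fold changes of the family and of 7 gene lists in numbers 3 and 6 over 1 and 4 (left) and numbers 2 and 5 over 1 and 4 (right); each point is a gene, filled where the edgeR adjusted p was under 0.05, bars mark list medians and the dashed line the median of all genes tested. The family's median was -1.28 on the left and -0.91 on the right, and that of the 8 tested preadipocyte and fibroblast markers 1.06 on the left.

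For each of the 7 tested genes the 3 genes with the most similar pattern were sought among 8985 genes with a mean log2 CPM of at least 3. The measure was Pearson's r of log2 CPM over the 18 libraries. The libraries fall into 3 sets, so the measure mainly compares set means. Those given for Scd1 are Narf and Prdx3 (r = 0.993 each), of which Prdx3 encodes a mitochondrial peroxiredoxin. Scd2 was most like Lrrc8d (0.995), Lpcat3 (0.992), which places polyunsaturated chains into phospholipids, and Acaca (0.991), acetyl-CoA carboxylase. Fads1 was most like Slc16a10 (0.994), Pvrl2 (0.994) and Insig1 (0.992). Fads2 was most like Klf6 (0.991), Ppp1r15a (0.990) and Ppapdc1b (0.989), and Fads3 like Jun (0.991), Bhlhe40 (0.990) and Cdsn (0.988). Elovl5 was most like Rnaset2b (0.982), Tmem128 (0.978) and Prnp (0.976). Elovl6 was most like Sc5d (0.949) and Fdps (0.948), enzymes of cholesterol synthesis, and H1f0 (0.942).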

How the data were processed

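RNA of 18 libraries was measured by stranded total RNA sequencing of 250 ng RNA with ribosomal RNA depletion and 52-base read pairs, per the labels' protocols. Per the labels, the authors deposited 1 table of salmon's expected counts, with genes in rows and the 18 libraries in columns. Build mm10, limma and edgeR appear in the submitters' processing notes. Which annotation, salmon version or strand option was used is not given in the sources used here.

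Expected counts were rounded to whole numbers, filtered with filterByExpr of edgeR (minimum count 10, minimum total 15; 14788 genes, at least 99.9% of each library's counts) and scaled with TMM, the trimmed mean of M values. CPM used the scaled totals, log2 CPM a prior count of 2, and CPM per kb the merged exon length in GENCODE M21 (45143 of 45706 identifiers matched). Comparisons used the robust quasi-likelihood F-test of edgeR, fitted to all 18 libraries, with time alone or with time and number set in the model. P-values are two-sided, adjusted by Benjamini-Hochberg over all genes tested, with a threshold of 0.05. SE stands for the standard error of the fold change in log2. Alternatives were DESeq2, limma-voom, other scalings, no filter, a replicate block, libraries of 1 time or 3 numbers alone, and each library left out. Another left out 5 genes read as signs of ribosomal RNA, Yam1 and Gm26917 among them. Precision depends on the 7010742 to 26501223 expected counts per library.

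Same-numbered libraries at different times had correlations of deviations from their time's mean between 0.297 and 0.718 in all 18 pairs, with a median of 0.590. Numbers 3 apart had 0.237 to 0.688, with a median of 0.569, and other pairs a median of -0.270. The correlations thus group the libraries by number set and hardly tell a same-numbered pair from a pair with numbers 3 apart. No label ties a number to a culture or day, and all libraries carry batch label 1.

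The genes and lists were chosen with earlier results of these data known. Genes named are the 8 family members, the 3 genes most like each tested member (1 of them is not reported here), and from each of 5 pathway lists the 2 with the highest mean level and the 2 with the largest fold change of numbers 3 and 6 over 1 and 4. Markers and pathway genes outside that rule (Fabp4, Ucp1, Adgre1, Cdh5, Myod1, Acta1, Acta2, Tagln, Des, Cd68, Elovl2, Yam1 and Gm26917) were chosen after their values were seen.

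Tools were Python 3.11.15 with Biopython 1.88, matplotlib 3.10.9, pandas 2.3.3 and numpy 2.4.6, and R 4.3.3 with DESeq2 1.42.0, limma 3.58.1 and edgeR 4.0.16. No protein sequence table was used here.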

Additional observations from a re-analysis of the deposited data

Results flagged for a closer look

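In 48 groups of 6 libraries (the 8 genes in the 3 labelled times and the 3 number sets), 1 library lay far from the others of its group. Fads2, the delta-6 desaturase, had 67.2 CPM in 24 h replicate 2, against 63.02 CPM in the nearest and 61.02 CPM in the farthest other library of numbers 2 and 5. The gap was 0.678 of the group's whole range, above Dixon's 95% critical value for 6 libraries. The groups by labelled time mix the 3 number sets, which leaves little room for a flag, and both kinds of group hold the same libraries. A rate of chance flags over the 48 groups is therefore not given, and the flag is a description only. Without that library the log2 fold change of Fads2 in numbers 2 and 5 over 1 and 4 was -1.28, against -1.25 with it.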

How the results depend on the processing

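Between number sets, the log2 fold changes of the 7 tested genes kept their sign under every alternative run, except Elovl5 in numbers 3 and 6 over 2 and 5 (0.0723 with library totals alone). With library totals alone, which shifted the median gene, 4536, 3788 and 5130 genes were called (numbers 3 and 6 over 1 and 4, numbers 2 and 5 over 1 and 4, numbers 3 and 6 over 2 and 5), and 3 of the 7 family members in the last. With fewer libraries, 4891, 4873 and 4392 genes were called in the 4 h libraries alone and 4522, 3698 and 3414 in the 24 h libraries alone. Leaving out each library gave 8446 to 8972, 8312 to 8952 and 7852 to 8557 genes, and 7 to 8, 6 to 8 and 7 members, counts above 7 arising where Elovl3 passed the filter. Scd1 in numbers 2 and 5 over 1 and 4 passed with DESeq2, limma-voom, median-ratio size factors, no filter or the block. It also passed with the signs of ribosomal RNA left out, and without 4 h replicate 2. The interaction of time and set called 8 genes with library totals alone, 302 with no filter and 0 to 5 with a library left out, above 0 without 24 h replicate 2 and without 24 h replicate 6; the cause was not tested.

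Between times, the block called 1 gene at 24 h against 0 h, and a left-out library 0 to 1 genes at 4 h against 0 h, 0 at 24 h against 0 h and 0 to 1 at 24 h against 4 h (both without 4 h replicate 3), never a family member. The replicate block changed no other call of a family member. Signs of the small differences between times turned in some settings. With limma-voom Scd2 was -0.0047 at 4 h against 0 h, and Fads1 0.0078 at 24 h against 4 h. With library totals alone Scd1 was -9.73e-05 at 4 h against 0 h, Elovl6 was -0.0904 at 24 h against 4 h, and at 24 h against 0 h Fads1 was -0.13, Fads2 -0.15, Fads3 -0.12, Elovl5 -0.16 and Elovl6 -0.0015. With a library left out, the ranges at 4 h against 0 h were -0.11 to 0.16 (Scd1), -0.34 to 0.42 (Scd2), -0.10 to 0.19 (Fads1), -0.17 to 0.30 (Fads2), -0.0631 to 0.31 (Fads3), -0.0254 to 0.0948 (Elovl5) and -0.0024 to 0.19 (Elovl6). At 24 h against 0 h they were -0.19 to 0.0896, -0.46 to 0.34, -0.12 to 0.17, -0.23 to 0.24, -0.13 to 0.26, -0.0303 to 0.0816 and 0.07 to 0.22, and at 24 h against 4 h -0.22 to 0.0719, -0.49 to 0.30, -0.16 to 0.11, -0.30 to 0.18, -0.23 to 0.12, -0.0690 to 0.0480 and -0.0399 to 0.15, in the same order of genes. Depth limits Elovl3 most.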
